A study of Mus musculus with 2 samples.

Results

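Macrophage and neutrophil genes were compared between teratomas of E14 and E14-Sox2TA/WT cells by RNA-seq. The members are 36 genes taken by their symbol from the 45777 genes of the mouse gene table, of which 29 are expressed by macrophages or by leukocytes at large and 7 by neutrophils. E14 is a mouse ESC line with both Sox2 alleles intact, and the E14-Sox2TA/WT cells were made from it with CRISPR-Cas9 and carry an alanine in place of threonine at residue 258 of Sox2 on 1 allele. Cells of each line were injected under the skin of nude mice (BALB/c-nu), which lack a thymus and thus most T cells but keep macrophages and neutrophils, and the teratomas were harvested at 14 days. The E14-Sox2TA/WT line is a clone grown from a single selected cell, and 1 library was made from teratomas of each line. The study inoculated 3 mice per group, and whether a library holds RNA of 1 teratoma or of several is not given in the sources used here. Teratomas were made to follow how the edited cells differentiate in vivo, and the comparison asks here how the phagocyte genes of the 2 tumors differed. The 2 libraries are named below by their line. The labels give teratoma as tissue, whereas their extraction text speaks of an ESC line.

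Macrophages are phagocytes that take up dying cells and microbes, digest them in acidic lysosomes and secrete complement and lysozyme. They depend on the receptor Csf1r and the transcription factor PU.1, and nearly every tissue holds its own resident population. Neutrophils are short-lived phagocytes that are packed with granule proteins during maturation in the bone marrow, so that mature cells keep the proteins but carry little of the mRNA. The leukocytes of a teratoma can belong to the host mouse or descend from the injected ESCs. Reads of host and injected cells were not separated here, so the 2 sources cannot be told apart.

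Nearly all macrophage members were higher in the E14-Sox2TA/WT library. Of the 28 macrophage members with a TPM at or above 1 in either library, 27 were higher and 1, Coro1a, was lower. TPM is the abundance of a transcript after scaling of reads by transcript length, with the same total in each library. The median log2 ratio of these 28 genes, with 1 added to each TPM, was 0.66, against -0.06 over the 18558 genes of the whole table that met the same filter, of which 47.5% were higher. Relative to the median of all genes it was 0.71. Summed over the 29 macrophage members, the TPM was 1341 in E14 and 2291 in E14-Sox2TA/WT, a ratio of 1.71. The 7 neutrophil members together went from a TPM of 1.86 to 68.1, of which Ltf alone made up 92.4% in the E14-Sox2TA/WT library.

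By the rule of the study, a TPM ratio above 2 with a TPM at or above 10 in either library, 7 of the 24 members that could be called were higher in the E14-Sox2TA/WT library and 0 were lower. The 7 were Lyz1, Lyz2, Cd14, Mrc1, Msr1, Ctss and Ltf. Over all 11578 genes that could be called, 10.8% were higher and 18.7% lower, or 1253 and 2167 genes. The paper reports fewer genes in each direction for its teratomas, so its own calls were not reproduced here. The reason for the difference was not tested. With a TPM of at least 1 in place of 10, 12 of 31 members were higher past 2-fold and 0 lower, where the shares over all genes were 19.3% and 18.9%. With 1 library per group there is no replicate check and no p-value. The intervals given below are exact 95% Clopper-Pearson intervals of the 2 read counts, scaled to the TPM ratio, and they cover counting error only. They compare these 2 libraries, not the genotypes. For a gene with 0 reads in E14 no TPM ratio exists, and the fold given as at least takes 3 reads there. It is on counts scaled by library total, where ratios run higher than on TPM, as for Lyz1 at 4.2 in place of 3.66. It leaves out the counting error of the other library. More macrophages in a tumor and more RNA per macrophage cannot be told apart in such bulk samples.

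**Figure D1:**
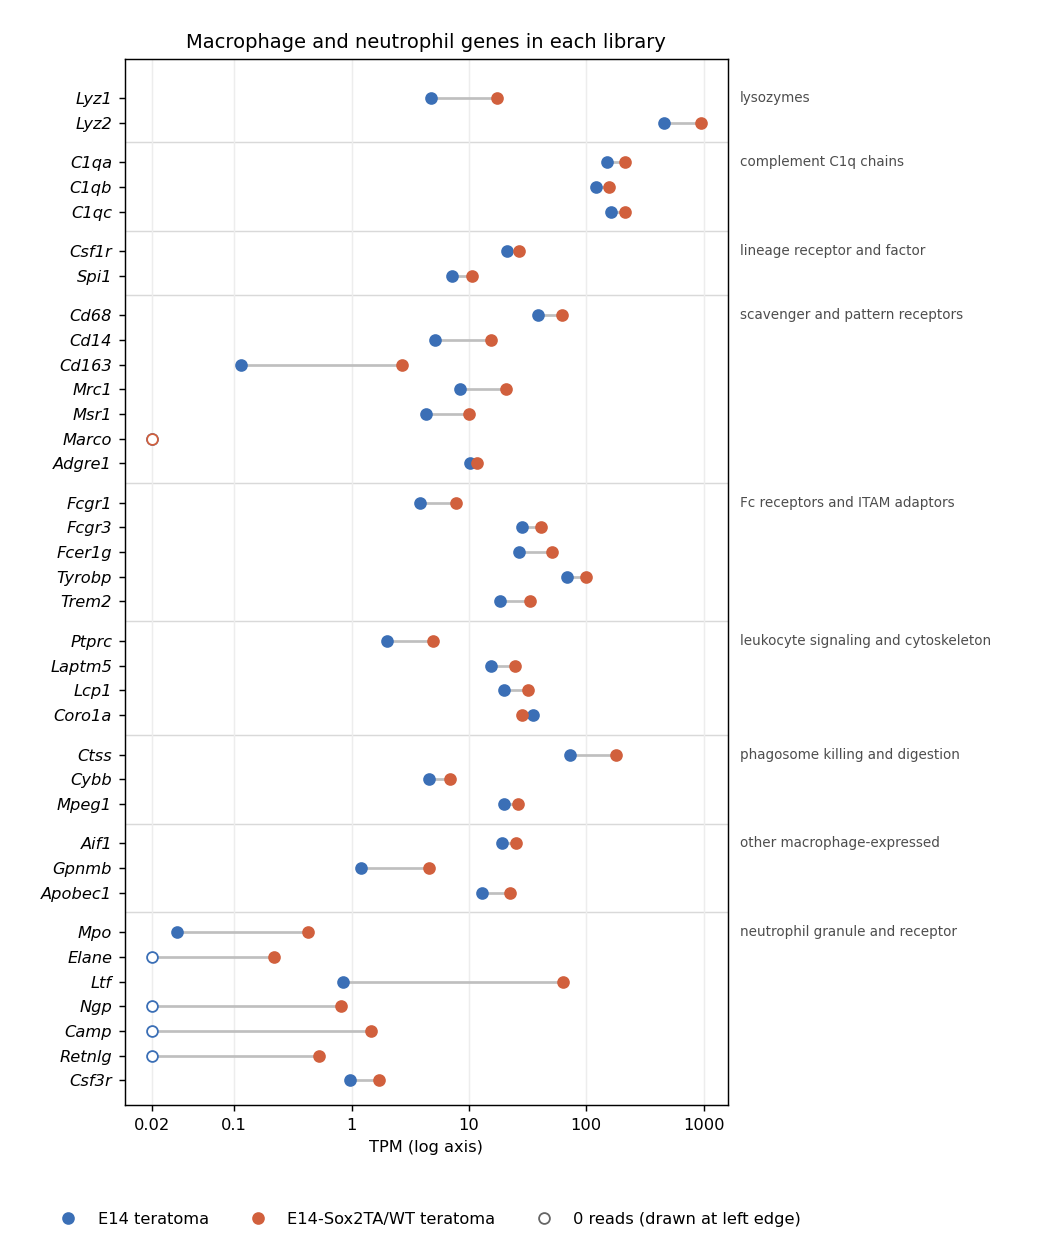
TPM of each of the 36 members in the E14 library (blue) and the E14-Sox2TA/WT library (orange) on a log axis, grouped by role. Open points mark genes with 0 reads. Orange lies to the right of blue for every member with reads except Coro1a, and Lyz2 is the highest member in both libraries, at 457 and 943.

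The gene counts summed to 50529171 reads for E14 and 49030281 for E14-Sox2TA/WT, so depth was similar. Mitochondrial transcripts took 5.17% of the TPM in the first and 9.7% in the second. For each gene the TPM ratio came to 0.871 of the FPKM ratio, a log2 shift of -0.20, so each ratio below would be higher on the FPKM scale. Over the genes that could be called the median log2 ratio was -0.18 on TPM and 0.01 on FPKM. Genes with reads in the E14-Sox2TA/WT library alone numbered 4545, against 1318 with reads in the E14 library alone. Sox2 itself had a TPM of 246 in E14 and 130 in E14-Sox2TA/WT, with its alleles not separated. All 10 germ layer markers examined reached a TPM of 1 in either library, 5 of them higher and 5 lower in E14-Sox2TA/WT. The neuronal tubulin Tubb3 went from a TPM of 1722 to 170, the epithelial keratin Krt8 from 118 to 426, the cartilage collagen Col2a1 from 58 to 74.8 and the endodermal Afp from 0.614 to 151. The muscle genes Actc1 and Myog were lower, from 94.7 to 31.6 and from 19.9 to 10.2, so the mesodermal markers went both ways.

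Lysozymes cut the peptidoglycan of bacterial cell walls. The mouse has a pair of them, Lyz2, made by macrophages and other myeloid cells, and Lyz1, made mainly by the Paneth cells of the intestine. Both genes lie on the minus strand of chromosome 10 (GRCm38.p6), Lyz2 at chr10:117277541-117282272 and Lyz1 at chr10:117287795-117292868. The 250 bases before their start sites are printed here to show how alike the 2 copies are. They were taken from RefSeq on GRCm38.p6, minus strand, at chr10:117282273-117282522 for Lyz2 and at chr10:117292869-117293118 for Lyz1. Capitals mark a match to TTGCNNAA, the core bound by C/EBP factors, or to its reverse complement TTNNGCAA.
Lyz2: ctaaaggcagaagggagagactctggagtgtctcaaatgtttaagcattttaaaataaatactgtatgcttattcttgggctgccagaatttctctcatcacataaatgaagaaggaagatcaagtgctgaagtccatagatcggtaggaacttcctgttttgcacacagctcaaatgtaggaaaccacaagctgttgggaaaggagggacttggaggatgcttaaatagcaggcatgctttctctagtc
Lyz1: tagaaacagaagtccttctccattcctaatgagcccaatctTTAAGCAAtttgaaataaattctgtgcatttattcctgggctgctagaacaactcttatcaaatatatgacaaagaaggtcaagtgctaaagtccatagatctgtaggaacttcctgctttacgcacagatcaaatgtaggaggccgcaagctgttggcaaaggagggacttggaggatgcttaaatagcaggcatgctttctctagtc
In an alignment of the 2 stretches, 205 of 260 columns were identical, or 78.8%, with a longest shared run of 50 bases. Their transcripts share sequence as well. Of all stretches of 50 nt in Lyz1 transcripts, 16.1% also occur in Lyz2, so reads from one can be counted on the other.

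Lyz2 was the most abundant member. It had 11612 reads and a TPM of 457 in E14 and 26781 reads and a TPM of 943 in E14-Sox2TA/WT. This is a ratio of 2.07 (2.02 to 2.11), just past the 2-fold rule, and Lyz2 stood above 98.6% and 99.3% of expressed genes in the respective libraries. Relative to genes of similar transcript length and GC content its ratio was 1.7, under the rule. Lyz1 had 146 reads and a TPM of 4.79 in E14 and 595 reads and a TPM of 17.5 in E14-Sox2TA/WT, a ratio of 3.66 (3.05 to 4.41). It contributed 1.24% of the reads of the 2 lysozymes in E14 and 2.17% in E14-Sox2TA/WT, so that their sum followed Lyz2, with a ratio of 2.08.

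Markers of Paneth cells were mixed beside Lyz1. The defensin gene Defa24, the ribonuclease Ang4 and the phospholipase Pla2g2a had 0 reads in both libraries, and the matrilysin Mmp7 had 0 and 6. The defensin gene Defa30 had 0 and 21 reads, at least 7.21-fold higher, and the lectin gene Itln1 had 0 and 85, at least 29.2-fold higher. Other intestinal genes were higher in the E14-Sox2TA/WT library. The antimicrobial lectin Reg3g went from a TPM of 4.25 to 198, a ratio of 46.6 (37.4 to 58.9), and the lipoprotein gene Apob from 0.135 to 7.58, a ratio of 56.2 (41.8 to 77.5). In the list of Paneth and intestinal genes, 9 of 13 genes had a TPM of at least 1, all 9 higher. The summed TPM went from 8.3 to 228, of which Reg3g alone made up 4.25 and 198. The part of such cells in the Lyz1 reads was not tested.

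The C1q chains form the recognition unit of the classical complement pathway, a bundle of C1qa, C1qb and C1qc subunits that binds antibody and dying cells. Tissue macrophages are their main source. The 3 genes lie side by side on the minus strand of chromosome 4, between chr4:136880126-136886200 for C1qb and chr4:136895916-136898844 for C1qa. C1qa had a TPM of 150 in E14 and 215 in E14-Sox2TA/WT, a ratio of 1.43 (1.38 to 1.49). C1qb had 121 and 155, a ratio of 1.28 (1.22 to 1.34), and C1qc had 164 and 212, a ratio of 1.29 (1.24 to 1.34). The 3 chains thus kept nearly the same proportions. C1qa made up 34.5% of their summed TPM in E14 and 37% in E14-Sox2TA/WT, C1qb 27.8% and 26.6%, and C1qc 37.7% and 36.4%. None of them reached 2-fold, and their median log2 ratio of 0.36 was under that of all macrophage members.

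The 250 bases before the start sites of C1qb and C1qc are printed because both hold GAGGAA, the core bound by PU.1, or its reverse complement TTCCTC, marked in capitals. They are from RefSeq on GRCm38.p6, minus strand, chr4:136886201-136886450 for C1qb and chr4:136892915-136893164 for C1qc.
C1qb: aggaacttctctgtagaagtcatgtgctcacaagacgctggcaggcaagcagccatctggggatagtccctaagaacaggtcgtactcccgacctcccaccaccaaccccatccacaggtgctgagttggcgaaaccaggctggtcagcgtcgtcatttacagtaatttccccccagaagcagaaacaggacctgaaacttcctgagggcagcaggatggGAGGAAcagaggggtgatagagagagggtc
C1qc: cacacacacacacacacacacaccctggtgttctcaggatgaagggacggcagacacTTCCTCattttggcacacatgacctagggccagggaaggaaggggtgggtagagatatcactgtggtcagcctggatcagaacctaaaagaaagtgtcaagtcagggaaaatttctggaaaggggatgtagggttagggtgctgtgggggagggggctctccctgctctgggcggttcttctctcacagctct
GAGGAA or its reverse complement was present in this window for 16 of the 29 members found in the promoter table, or 55.2%, against 6986 of 27025 genes, or 25.9%. The C/EBP core was present for 6 of the 29 members, or 20.7%, against 2930 genes, or 10.8%. Both strands were searched, and the 2 motifs can share letters only at their ends. A match is a string of letters and not a site where a factor was found. Among the macrophage members alone, 12 of 22 held the PU.1 core and 3 held the C/EBP core. The macrophage members past the 2-fold rule did not all hold the PU.1 core. Mrc1 held 3 copies and Ctss 1, whereas Lyz1 and Lyz2 held 0.

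Csf1r is the receptor for the growth factors Csf1 and Il34, and Spi1 encodes PU.1, which switches on much of the myeloid program. Csf1r had 1982 reads and a TPM of 21.3 in E14 and 2780 reads and a TPM of 26.7 in E14-Sox2TA/WT, a ratio of 1.26 (1.19 to 1.33). Spi1 had a TPM of 7.14 and 10.7, a ratio of 1.5 (1.28 to 1.76). Relative to genes of similar length and GC content their log2 ratios were 0.77 and 0.70, against 0.73 for the median of the macrophage members on that scale. Of the ligands of Csf1r, Csf1 was lower, with a TPM of 17 in E14 and 10.2 in E14-Sox2TA/WT and a ratio of 0.601 (0.556 to 0.649). Il34 was higher, from 0.885 to 5.07, a ratio of 5.73 (4.09 to 8.22). The ligand pair therefore went in opposite directions between the libraries. The partner factors Runx1, Cebpa and Cebpb had ratios of 2.22, 1.91 and 2.03.

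The scavenger and pattern receptors, which bind modified lipids, sugars and microbial surfaces, held the widest range of ratios among the macrophage groups. Cd14, the co-receptor that hands lipopolysaccharide to Tlr4, had 207 reads and a TPM of 5.17 in E14 and 689 reads and a TPM of 15.4 in E14-Sox2TA/WT, a ratio of 2.98 (2.55 to 3.5). Mrc1, the mannose receptor, had 1078 and 2955 reads and a TPM of 8.42 and 20.7, a ratio of 2.46 (2.29 to 2.64). Msr1, a receptor for modified lipoproteins, had 325 and 997 reads and a TPM of 4.3 and 10, a ratio of 2.33 (2.06 to 2.65). All 3 passed the rule, and Msr1 did so with a TPM that only just met the minimum. Of the partners of Cd14, Tlr4 went from a TPM of 0.612 to 2.17 and its accessory protein gene Ly96 from 2.72 to 7. Relative to genes of similar transcript length and GC content the log2 ratio of Tlr4 was 0.92, while that of the short Ly96 fell from 1.10 to 0.07.

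Cd163, the receptor that clears hemoglobin bound to haptoglobin, had 13 reads in E14 and 322 in E14-Sox2TA/WT. Its TPM was 0.114 and 2.7, a ratio of 23.8 (13.7 to 45.1), the highest of the macrophage members, at a level too low for the rule. Cd68, a glycoprotein of the lysosomal membrane, was far more abundant. It had 1137 and 2045 reads and a TPM of 38.8 and 62, a ratio of 1.6 (1.48 to 1.72). Adgre1, which encodes the F4/80 antigen used to recognize mouse macrophages, had 787 and 1013 reads and a TPM of 10.2 and 11.7. Its ratio of 1.14 (1.04 to 1.26) was the lowest above 1 among the members. Marco, a receptor of some macrophages of the lung and spleen, had 0 reads in both libraries, where a count of 0 allows up to 3 reads.

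Some of these receptors are also made by other cells. Mrc1 is expressed by lymphatic and sinusoidal endothelium, and genes of such vessels stood as follows. Lyve1 went from a TPM of 0.556 to 3.93, a ratio of 7.06 (4.96 to 10.3), and Stab2 had 16 and 50 reads. The more abundant Stab1 had 1526 and 2008 reads and a TPM of 7.94 and 9.35, a ratio of 1.18 (1.1 to 1.26). The lymphatic regulator Prox1 was lower, from 10.9 to 3.99, and the endothelial list as a whole had a summed TPM of 101 and 104 and a median log2 ratio of 0.11. The part of endothelium in the Mrc1 reads was not tested.

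Fc receptors bind the constant part of antibodies and signal through adaptors that carry an ITAM, a tyrosine motif that recruits the kinase Syk. Fcer1g and Tyrobp are such adaptors, and Trem2, a receptor for lipids and dying cells, signals through Tyrobp. Tyrobp had a TPM of 68 in E14 and 99.8 in E14-Sox2TA/WT, a ratio of 1.47 (1.35 to 1.59). Fcer1g had 26.7 and 51, a ratio of 1.91 (1.7 to 2.15). Trem2 had 18.4 and 33.1, a ratio of 1.8 (1.61 to 2.01). All were higher and none passed the rule on TPM. The call depended on the scaling for Fcer1g and Trem2. Fcer1g passed on FPKM and on counts scaled by library total, TMM factors or size factors. Trem2 passed on FPKM, on library total and after correction for length and GC content. The length used for Trem2 in that correction is doubtful, as given below.

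Of the Fc receptors themselves, Fcgr1, which binds single antibodies tightly, had 238 and 535 reads and a TPM of 3.81 and 7.69, a ratio of 2.02 (1.73 to 2.36) below the TPM minimum. Fcgr3, a low-affinity activating receptor, had a TPM of 28.5 and 40.8, a ratio of 1.43 (1.32 to 1.55). Of its stretches of 50 nt, 9.58% also occur in the inhibitory receptor gene Fcgr2b, which had 24 and 39.8 and a ratio of 1.66. The 2 counts are therefore not fully separate. The kinase gene Syk went from a TPM of 3.12 to 7.75, a ratio of 2.48 (2.22 to 2.79), larger than the ratio of any adaptor that recruits it. The short transcripts of Tyrobp and Fcer1g, at 597 and 683 nt, stand beside a general difference by length. Over the 1377 genes with transcripts under 750 nt the median log2 ratio was 0.44, and over the 2154 with transcripts over 6000 nt it was -0.50. Relative to genes of similar length and GC content, the log2 ratio was 0.18 for Tyrobp, 0.54 for Fcer1g and 1.20 for Trem2. The length used is that of the longest annotated transcript, 4784 nt for Trem2. Its 486 reads at a TPM of 18.4 are about as many per TPM as for C1qa, at 1040 nt. They are far fewer per TPM than for Csf1r, at 4701 nt. The Trem2 reads thus point to a shorter transcript, and its corrected value and the order of the 3 genes are uncertain.

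Ptprc (CD45), Laptm5, Lcp1 and Coro1a mark leukocytes in general. Ptprc, a phosphatase on all nucleated blood cells, had 268 reads and a TPM of 2 in E14 and 694 reads and a TPM of 4.91 in E14-Sox2TA/WT, a ratio of 2.46 (2.14 to 2.85). Laptm5, a lysosomal protein of leukocytes, had a TPM of 15.5 and 24.9, a ratio of 1.6 (1.48 to 1.74). Lcp1, which bundles actin, had 20 and 31.6, a ratio of 1.58 (1.49 to 1.67). Coro1a, another regulator of actin, was the exception. It had 1403 reads and a TPM of 35 in E14 and 1275 reads and a TPM of 28.4 in E14-Sox2TA/WT, a ratio of 0.812 (0.752 to 0.876). Coro1a was below 1 under each scaling tried, from 0.812 to 0.937. Neurons also express Coro1a, and the neuronal gene Tubb3 was lower in the same library. The part of neurons in the Coro1a reads was not tested.

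The phagosome genes encode what digests or kills engulfed material. Ctss, a cathepsin that works at neutral pH and trims the invariant chain of MHC class II, had 2374 reads and a TPM of 72.8 in E14 and 6593 reads and a TPM of 181 in E14-Sox2TA/WT, a ratio of 2.49 (2.37 to 2.61). Ctss lay below all 3 C1q chains in E14 and above C1qb in E14-Sox2TA/WT. Relative to genes of similar length and GC content its ratio was 1.83, under the rule. The MHC class II gene H2-Ab1 went from a TPM of 20.1 to 43.2, a ratio of 2.15 (1.95 to 2.37). Mpeg1, a pore-forming protein of phagosomes, had 19.8 and 26, a ratio of 1.32 (1.24 to 1.39).

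Cybb is the catalytic subunit of the phagocyte NADPH oxidase, which makes superoxide. It had 521 and 883 reads and a TPM of 4.56 and 6.89, a ratio of 1.51 (1.36 to 1.69). Its membrane partner gene Cyba had 40.1 and 86.7, a ratio of 2.16 (1.98 to 2.36). The cytosolic subunits Ncf1 and Ncf4 had ratios of 1.69 and 2.67, the small GTPase gene Rac2 2.23, and the chaperone gene Cybc1 0.862 (0.807 to 0.92). Of these 6 oxidase genes, 5 were higher, and Cyba and Rac2 passed the rule. Cyba is expressed in many cell types.

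Genes of lysosomes in general, which every cell holds, had smaller ratios than Ctss except for a pair of cathepsins. Of 12 lysosome genes 2 passed the rule, Ctsz, from a TPM of 76.2 to 239, and Ctsl, from 121 to 322. Ctsd and Psap, the most abundant, had 470 and 515, and 437 and 440. The median log2 ratio of the list was 0.24, and its summed TPM was 2178 and 2776.

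Aif1, Gpnmb and Apobec1 complete the macrophage members. Aif1 (Iba1), a calcium-binding protein used to stain macrophages and microglia, had a TPM of 19.1 and 25.3, a ratio of 1.32 (1.17 to 1.5). It has a short transcript, and relative to genes of similar length and GC content its log2 ratio was -0.10, the only change of direction of a member under the alternatives run. Apobec1, an RNA-editing deaminase that acts on the mRNA of Apob in the intestine, had 13 and 22.5, a ratio of 1.73 (1.58 to 1.9). Gpnmb, a glycoprotein of lysosome-rich macrophages, osteoclasts and pigment cells, had 110 and 469 reads and a TPM of 1.2 and 4.59, a ratio of 3.82 (3.1 to 4.75). Osteoclast genes were higher beside Gpnmb. The acid phosphatase gene Acp5 had a TPM of 3.52 and 41.2, a ratio of 11.7 (9.7 to 14.2), and Ctsk had 12.3 and 49, a ratio of 3.99 (3.61 to 4.42). The summed TPM of all 11 osteoclast genes was 27.5 and 121. Of 8 pigment cell genes none reached the TPM of 10 that the rule needs and 3 reached a TPM of 1, of which 1, Mlana, was past 2-fold higher, and the summed TPM was 4.17 and 9.48. Mlana had 0 and 87 reads, Pmel a TPM of 1.4 and 1.94, Mitf 2.12 and 2.62, and the melanin enzyme gene Tyr 4 and 0 reads. The part of osteoclasts or pigment cells in the Gpnmb reads was not tested.

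**Figure D2:**
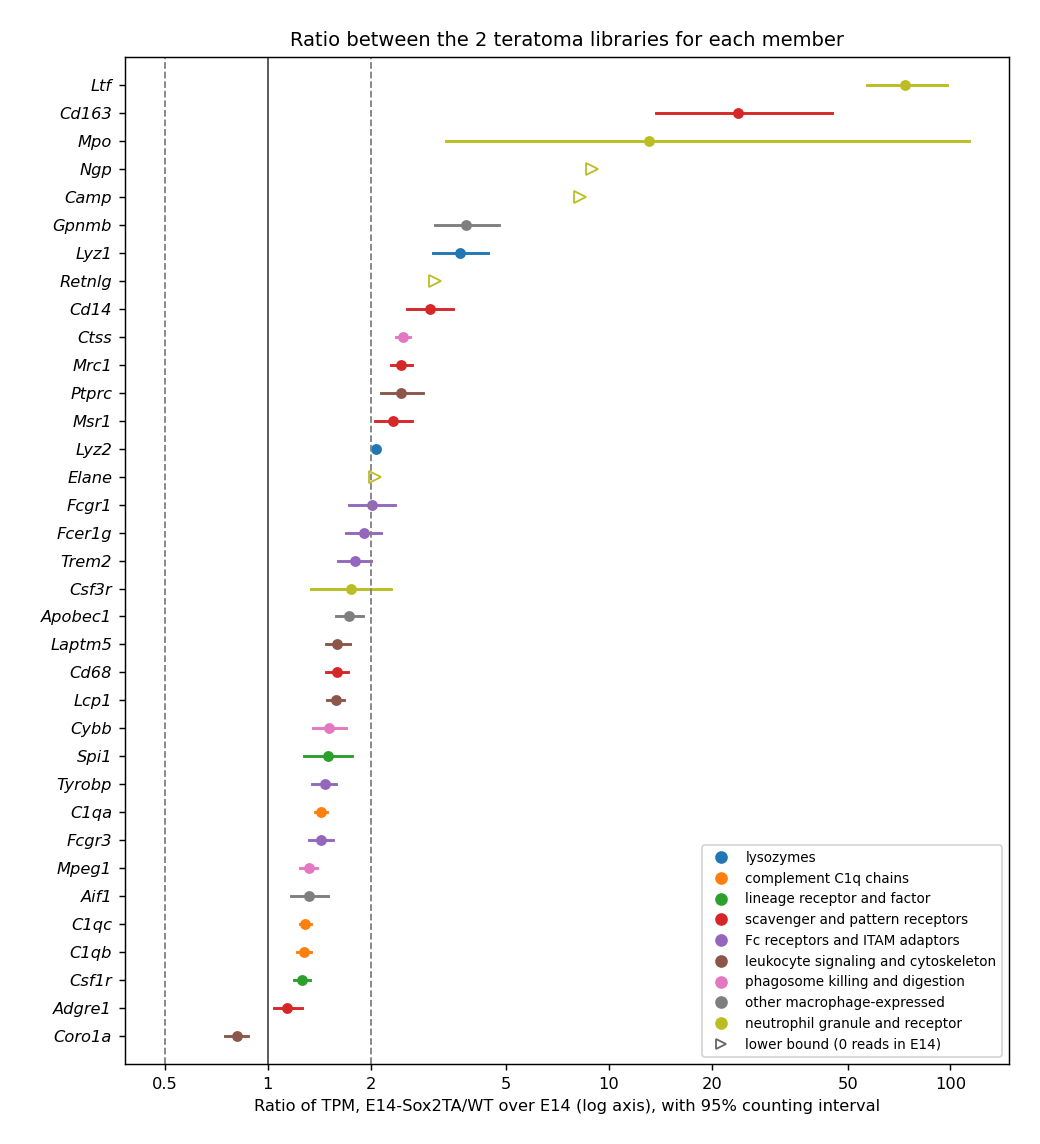
Ratio of TPM between the libraries, E14-Sox2TA/WT over E14, for the 35 members with reads, in order of size on a log axis and colored by role, with the 95% counting interval as a line. Open triangles are lower bounds for members with 0 reads in the E14 library, set with 3 reads there on counts scaled by library total in place of TPM. They leave out the counting error of the other library. Dashed lines mark 2-fold. Most macrophage members lie between 1 and 2, Coro1a lies below 1 at 0.812, and Ltf and Cd163 lie at 73.8 and 23.8.

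Across the 28 macrophage members with a TPM of at least 1, the ratio was at or below 1 for 1 gene, between 1 and 1.5 for 9, between 1.5 and 2 for 8 and above 2 for 10. Over all genes at the same TPM filter, 19.3% had a ratio above 2. The counting interval lay wholly above 1 for 27 of the 28, the same genes that were higher. It covers counting error only, and this share was not computed over all genes. Genes that were lower in the E14 library tended to have larger ratios, with a Spearman correlation of -0.48 across the 28 genes, which share the 2 libraries and a ratio that itself holds the E14 value. Transcript length was only weakly related to the ratio among them, with a Spearman correlation of 0.16 and a Pearson correlation of 0.14. The members lie on 16 chromosomes. A total of 1 member, Msr1, lies on chromosome 8, where the median log2 ratio of 926 genes was -0.48, and 0 lie on chromosome 15, where it was 0.35 over 742 genes.

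Set among all genes of the same level, in 20 bins of equal size by mean log2(TPM + 1), 27 of the 28 macrophage members were above the median of their bin and 23 were above its 75th percentile. The count above the 95th percentile was 2, Lyz2 and Ctss, at percentiles 95.7 and 97.6. Coro1a stood at 48.8 and Adgre1 at 66.4. The C1q genes stood at 81.6, 76 and 73.3 for C1qa, C1qb and C1qc. The shift was thus shared by most members and moderate for most of them. The added 1 understates the change of low genes on this scale, Cd163 above all, whose log2 ratio of 1.73 stands for a 23.8-fold ratio.

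**Figure D3:**
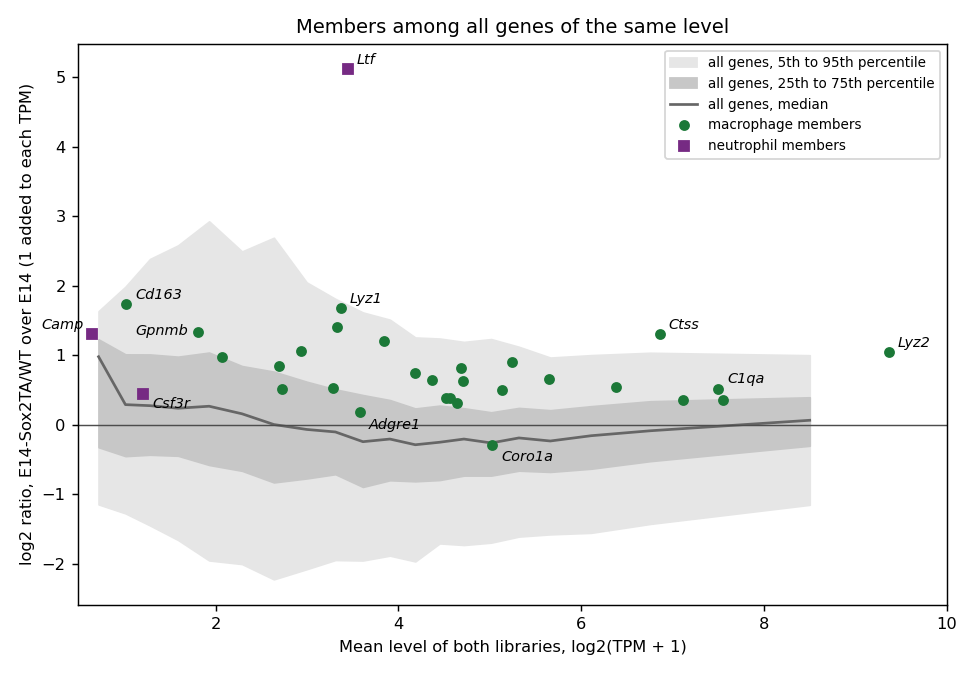
Log2 ratio, E14-Sox2TA/WT over E14, against the mean level of both libraries, both as log2(TPM + 1), for the 28 macrophage members (green circles) and the 3 neutrophil members (purple squares) with a TPM of at least 1. Grey bands and line give the 5th to 95th percentile, the 25th to 75th percentile and the median of all genes by level. Of the macrophage members 27 lie above the line, and Ltf lies far above the outer band at 5.11.

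Further genes of macrophages and monocytes, outside the members, went the same way in most cases. Of 30 such genes 28 had a TPM of at least 1, of which 26 were higher and 2 lower, where 47.5% of all genes were higher. Of the 16 that could be called, 7 passed the rule, all higher. Over all genes that could be called, 10.8% were higher and 18.7% lower. Their median log2 ratio was 0.77 and their summed TPM went from 217 to 392, a ratio of 1.81. Clec7a, the beta-glucan receptor, had 3.34 and 14.3, a ratio of 4.29 (3.65 to 5.06), and the tetraspanin gene Cd53 had 4.38 and 17.7, a ratio of 4.03 (3.55 to 4.59). Ly86, a partner of a Toll-like receptor relative, was the less changed of the abundant genes, at 28.6 and 37.2.

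The 2 lower genes were the fractalkine receptor gene Cx3cr1, from a TPM of 10.7 to 6.98 with a ratio of 0.653 (0.592 to 0.721), and Siglec1, from 4.58 to 3.83. Relative to genes of similar length and GC content their log2 ratios were -0.17 and 0.45, so Siglec1 changed direction. Cx3cr1 is high in microglia, the macrophages of the brain. Of the genes that set microglia apart, Fcrls was lower, from 32.8 to 17.8 with a ratio of 0.541 (0.499 to 0.586), and Sall1, which neural and kidney progenitors also express, was lower at 0.692. P2ry12, Tmem119, Olfml3 and Gpr34 were higher, with ratios of 1.32, 1.63, 2.12 and 2.85. After correction for length and GC content the log2 ratio was -0.87 for Fcrls, -0.15 for Sall1 and -0.21 for P2ry12. It was 0.84, 1.56 and 0.46 for Tmem119, Olfml3 and Gpr34. The length used for Olfml3, 5465 nt for its longest transcript, is doubtful. Its 800 reads at a TPM of 19.1 are fewer per TPM than for Tmem119, at 2242 nt. The microglia list thus did not go one way. Its summed TPM of 680 and 996 was mostly that of Sparc, at 516 and 803, which many cells of connective tissue make.

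The complement genes that act after C1q had larger ratios than C1q itself. The protease genes C1ra and C1s1 went from a TPM of 2.78 to 5.94, a ratio of 2.13 (1.79 to 2.55), and from 6.36 to 26.4, a ratio of 4.14 (3.74 to 4.6). C2 had a ratio of 2.35, C4b of 2.44, from 10.8 to 26.4, and C3 of 6.94, from 0.494 to 3.43. These proteins are made mostly by hepatocytes, fibroblasts and epithelium. Their intervals do not overlap those of the C1q chains. Over all 22 partners of the members, 21 had a TPM of at least 1, of which 19 were higher and 2 lower. Of the 8 that could be called, 5 passed the rule, all higher, namely C1s1, C4b, Cyba, Rac2 and Cebpb. The shares over all genes that could be called were 10.8% higher and 18.7% lower.

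**Figure D4:**
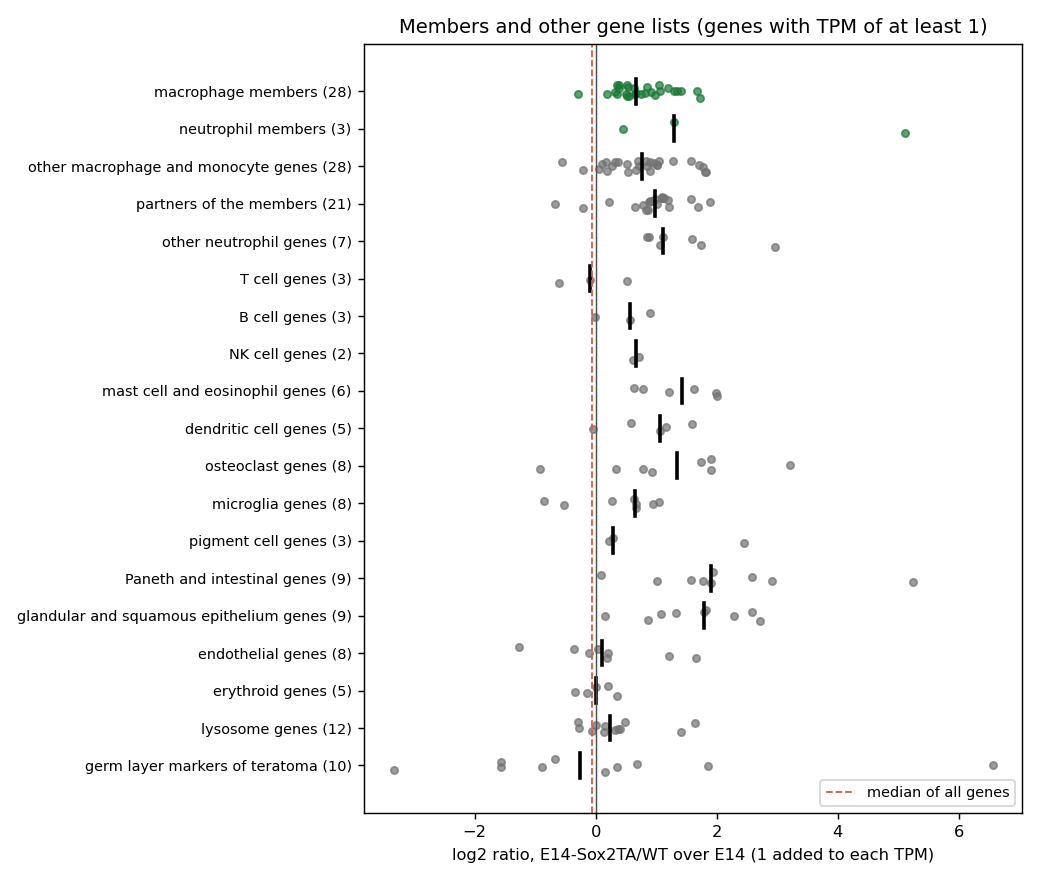
Log2 ratio, E14-Sox2TA/WT over E14 with 1 added to each TPM, of every gene with a TPM of at least 1 in the members (green) and in 17 other lists (grey), with the number of genes in parentheses. Black bars are list medians and the dashed line is the median of all genes, -0.06. The macrophage members have a median of 0.66, and the erythroid and endothelial lists lie at 0.01 and 0.11.

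The neutrophil members were scarce in both libraries, apart from Ltf in the E14-Sox2TA/WT library. Lactoferrin, the product of Ltf, binds iron and is stored in the secondary granules of neutrophils, and glandular epithelium secretes it into milk, tears and airway fluid. Ngp and Camp, the latter the source of the peptide cathelicidin, are stored in the same granules. The 3 genes lie on chromosome 9. The 250 bases before their start sites are shown so that the letters can be set beside the very different levels below. They are from RefSeq on GRCm38.p6, at chr9:111019042-111019291 on the plus strand for Ltf, chr9:110419558-110419807 on the plus strand for Ngp and chr9:109849457-109849706 on the minus strand for Camp. Capitals mark the C/EBP core TTGCNNAA or TTNNGCAA and the PU.1 core GAGGAA or TTCCTC.
Ltf: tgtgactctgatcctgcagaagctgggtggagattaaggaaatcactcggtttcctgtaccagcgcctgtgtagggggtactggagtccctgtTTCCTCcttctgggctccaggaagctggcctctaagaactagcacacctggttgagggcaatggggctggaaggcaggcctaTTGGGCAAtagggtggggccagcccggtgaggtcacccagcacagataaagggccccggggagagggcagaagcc
Ngp: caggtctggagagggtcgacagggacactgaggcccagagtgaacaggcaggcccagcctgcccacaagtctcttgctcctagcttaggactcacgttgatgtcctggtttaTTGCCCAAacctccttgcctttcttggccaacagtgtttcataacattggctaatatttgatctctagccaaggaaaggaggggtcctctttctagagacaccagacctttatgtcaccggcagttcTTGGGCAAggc
Camp: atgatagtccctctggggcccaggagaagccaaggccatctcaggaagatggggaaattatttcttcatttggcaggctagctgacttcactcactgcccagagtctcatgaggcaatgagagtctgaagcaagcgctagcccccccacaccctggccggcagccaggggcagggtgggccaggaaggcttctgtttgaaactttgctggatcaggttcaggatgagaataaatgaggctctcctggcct
Ltf held both cores, Ngp held the C/EBP core alone and Camp held neither in this window.

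Ltf had 57 reads and a TPM of 0.853 in E14 and 4635 reads and a TPM of 62.9 in E14-Sox2TA/WT, a ratio of 73.8 (56.8 to 97.6). It was the only neutrophil member abundant enough for the rule, which it passed, and had the largest ratio of all members. Ngp had 0 and 26 reads and Camp 0 and 24. Taking the E14 count as up to 3 reads, on counts scaled by library total, Ngp was at least 8.93-fold higher and Camp at least 8.24-fold higher. Granule genes that are made together in maturing neutrophils were thus far apart in level. In the E14-Sox2TA/WT library the TPM of Ltf was 43 times that of Camp and 77.3 times that of Ngp.

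The primary granule genes among the members, Mpo and Elane, were close to the limit of detection. Prtn3, a primary granule gene outside the members, had 41 and 106 reads and a TPM of 1.75 and 4.05, a ratio of 2.31 (1.6 to 3.4). Mpo, which makes hypochlorous acid, had 2 and 30 reads and a TPM of 0.0326 and 0.427, a ratio of 13.1 (3.32 to 113). Elane, the elastase, had 0 and 6 reads and was at least 2.06-fold higher on counts scaled by library total. Retnlg, a resistin-like protein of mature neutrophils, had 0 and 9 reads and was at least 3.09-fold higher. Csf3r, the receptor for the growth factor of neutrophils, had 87 and 162 reads and a TPM of 0.976 and 1.71, a ratio of 1.75 (1.34 to 2.3). Macrophages express Csf3r as well, and 10.5% of its stretches of 50 nt occur in other transcripts, mostly of AC105061.2. All 7 neutrophil members had more reads in the E14-Sox2TA/WT library, but 4 of them had 0 in the E14 library.

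A count of 0 in the E14 library was common at this level. Of the 5013 genes with 6 to 30 reads in the E14-Sox2TA/WT library, the range that holds Elane, Retnlg, Camp, Ngp and Mpo, 1786 had 0 reads in the E14 library, or 35.6%. In the other direction, 438 of the 4159 genes with 6 to 30 reads in the E14 library had 0 in the E14-Sox2TA/WT library, or 10.5%. Without Ltf, the summed TPM of the neutrophil members was 1.01 and 5.16, a ratio of 5.11 in place of 36.6. The median log2 ratio of the neutrophil members, 1.30, rests on the 3 with a TPM of at least 1 and is the value of Camp, which depends on the added 1. It ranged from 0.57 to 5.11 under the alternatives run.

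Other neutrophil genes bear on the same question. Of 20 such genes 7 had a TPM of at least 1, all higher, and the 2 abundant enough for the rule, S100a9 and Mmp9, passed it. S100a8 and S100a9, whose products form calprotectin, the main cytosolic protein of neutrophils, had 21 and 92 reads and 86 and 218 reads. S100a9 had a TPM of 6.81 and 15.4, a ratio of 2.26 (1.76 to 2.94). Its transcript is short, and relative to genes of similar length and GC content its log2 ratio was 0.39 in place of 1.07, under the rule. Mmp9, a gelatinase of neutrophil granules that osteoclasts also make, had 2.52 and 10.8, a ratio of 4.28 (3.68 to 4.99). Lcn2, a siderophore-binding protein of secondary granules and of epithelium, had 0 and 156 reads, at least 53.6-fold higher. The surface marker gene Ly6g had 0 and 9 reads, the chemokine receptor gene Cxcr2 had 3 and 28, and the serine protease gene Ctsg had 0 in both. Their summed TPM was 14.7 and 53.3. Summed, these 20 genes had 423 reads in E14 and 1832 in E14-Sox2TA/WT, fewer in all than Ltf alone had in the latter.

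Secretory and squamous epithelium genes were higher beside Ltf. Bpifa1, a secreted protein of airway glands, went from a TPM of 12.9 to 82, a ratio of 6.35 (5.67 to 7.14). The airway mucin gene Muc5b had 30 and 1106 reads, a ratio of 33.3 (23.2 to 49.6), and Pigr, which carries antibodies across glandular epithelium, had 16 and 198, a ratio of 11.6 (6.99 to 20.8). The basal keratin genes Krt5 and Krt14 went from 25.1 to 127 and from 8.09 to 58.9. All 9 genes of the list were higher, Epcam least with a ratio of 1.12, and their summed TPM was 161 and 442. The part of epithelium in the Ltf and Lcn2 reads was not tested.

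**Figure D5:**
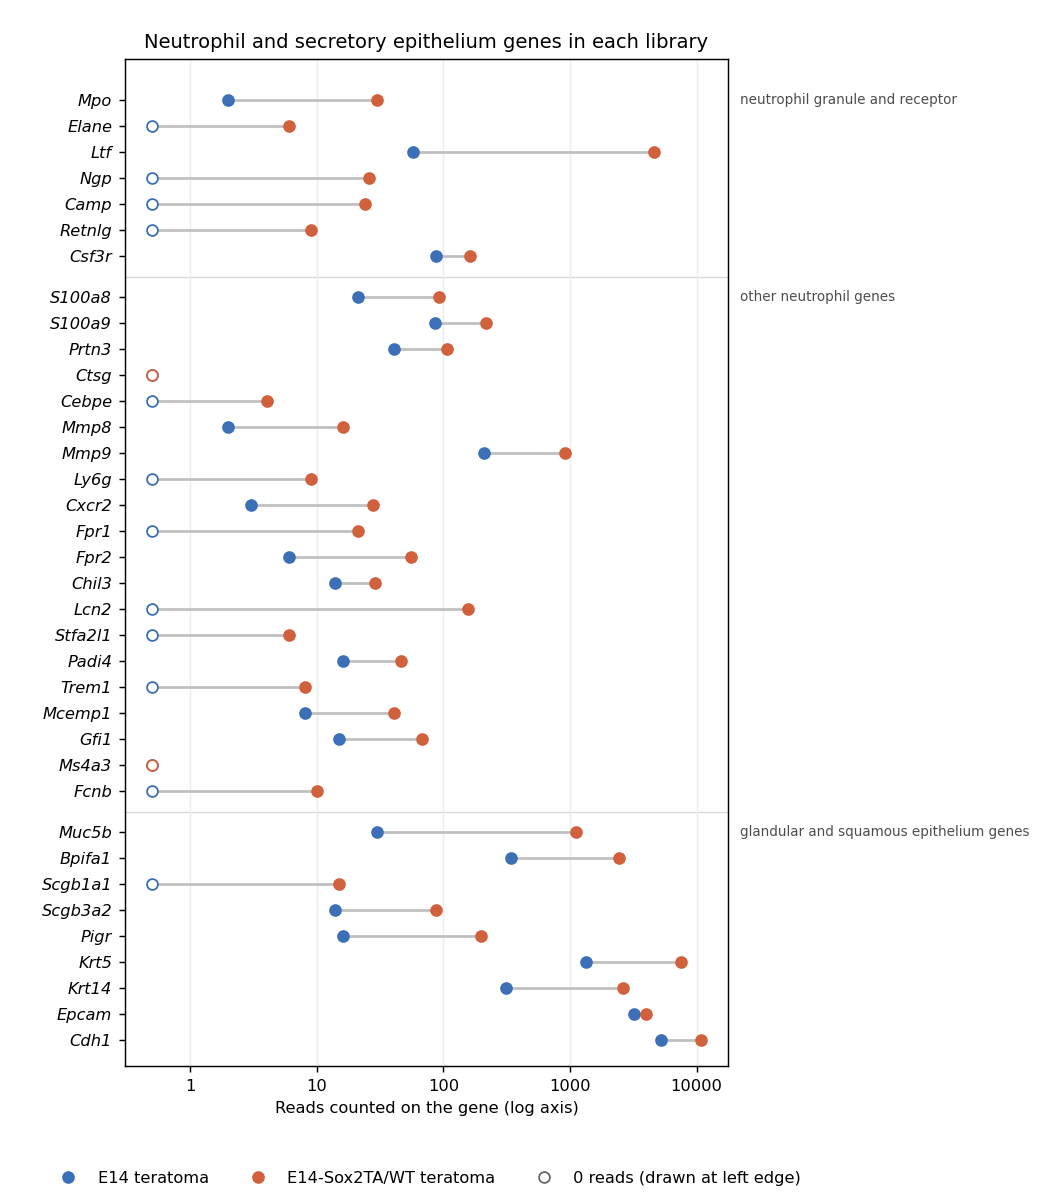
Reads counted on the 7 neutrophil members, 20 other neutrophil genes and 9 genes of glandular and squamous epithelium, in the E14 library (blue) and the E14-Sox2TA/WT library (orange), on a log axis. Open points at the left edge mark 0 reads. In the E14-Sox2TA/WT library Ltf has 4635 reads and the other neutrophil members have 6 to 162.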

How the data were processed

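RNA-seq of 1 E14 and 1 E14-Sox2TA/WT teratoma library was analyzed. The authors deposited raw read counts for every gene, together with FPKM and TPM, which they scaled by transcript length and library. The submitters' processing notes name bcl2fastq 2.20.0, Trimmomatic, HISAT2 2.1.0 and StringTie 2.1.3b, with mm10 for these genes. Whether counting used strand and how multi-mapped reads were treated is not given in the sources used here. TPM keeps differences in RNA composition, such as the mitochondrial share, in every ratio.

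Ratios of TPM were called by the study's rule, above 2 at a TPM of 10 or more in either library. Medians used log2(TPM + 1) over genes at a TPM of 1 or more. Folds against 0 reads used a floor of 3 reads and counts scaled by library total. Of 45777 identifiers, 45679 matched the RefSeq table of GRCm38.p6, which gave positions. Transcript lengths, those of the longest annotated transcript of each gene, covered 95.1% of genes at a TPM of 1 or more and all 36 members. Correction used 10 length and 5 GC bins. Counts were scaled by edgeR's TMM factors as an alternative. Software comprised edgeR 4.0.16 under R 4.3.3, and scipy 1.17.1, pandas 2.3.3 and numpy 2.4.6 under Python 3.11.15. The scripts were tested on simulated data.

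The members and lists were chosen with earlier results of these data known. Every member was named, with the 2 most abundant and 2 most changed genes of each other list. Other genes named from those lists were chosen after their values were seen. Some genes of these lists are not reported here. No p-value was computed.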

Additional observations from a re-analysis of the deposited data

How the results depend on the processing

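The median log2 ratio of the macrophage members, 0.66, lay between 0.59 and 0.86 under every alternative run. That of the neutrophil members, 1.30 over 3 genes, lay between 0.57 and 5.11. The 7 members past 2-fold became 14 with a fold above 1.5, 2 with a fold above 3, 12 with a TPM of at least 1, 16 without a filter on TPM and 2, Ctss and Lyz2, where both libraries had to reach a TPM of 10. Other scalings gave 6 to 10. Correction for length and GC content gave 6, of which 5 were among the 7, as Lyz2 and Ctss left and Trem2 joined. The length used for Trem2 is doubtful, as given above. Leaving out Lyz1, Gpnmb, Apobec1, Mrc1 and Ltf, which other cell types also express, an alternative chosen after seeing the data, gave 4. The number of lower members was 0 under every alternative run. The ratio of summed TPM of the macrophage members, 1.71, was 1.96 on FPKM, 1.79 on counts scaled by TMM factors, 1.79 without mitochondrial and hemoglobin genes, 1.52 without the most abundant member and 1.51 without Lyz1 and Lyz2. That of the neutrophil members, 36.6, was 5.11 without Ltf. For single members 156 alternative ratios were computed, of which 1 changed direction, that of Aif1. The causes of these shifts were not tested, beyond what each alternative's construction shows.

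No paired analysis was possible because each group has 1 library, and no replicate was left out. Depth limits the 6 neutrophil members other than Ltf, with at most 162 reads in a library, and not the abundant macrophage members, where the spread between tumors is unknown.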

Other observations

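Genes of bone-resorbing osteoclasts, which arise from the same precursors as macrophages, were among the higher lists. Of 11 genes 8 had a TPM of at least 1, of which 7 were higher and 1 lower, and Acp5, Ctsk and Mmp9, the 3 abundant enough for the rule, passed it. The summed TPM was 27.5 in E14 and 121 in E14-Sox2TA/WT, a ratio of 4.42, against 1.71 for the macrophage members. The proton pump subunit gene Atp6v0d2 had 83 and 532 reads, a ratio of 5.77 (4.57 to 7.36), and the fusion protein genes Dcstamp and Ocstamp had 7 and 42 and 3 and 23 reads. Tnfrsf11a, the receptor for the osteoclast growth signal, had a ratio of 2.68 (2.16 to 3.33) and the integrin gene Itgb3 2.55 (2.17 to 3.02). Calcr, the calcitonin receptor gene, was the lower one, with 187 and 62 reads and a ratio of 0.294 (0.217 to 0.394). Ctsk is also made by fibroblasts and cartilage-lining cells.

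Mast cell proteases were read in the E14-Sox2TA/WT library alone. Cma1 had 0 and 89 reads, Tpsb2 0 and 88, Mcpt4 0 and 56 and the carboxypeptidase gene Cpa3 0 and 52, so that Cma1 was at least 30.6-fold higher and Tpsb2 at least 30.2-fold higher. The IgE receptor genes Fcer1a and Ms4a2 had 0 and 7 and 0 and 4 reads. Hdc, which makes histamine and is also expressed outside mast cells, had a TPM of 16.6 and 26.2. Of the 11 mast cell and eosinophil genes, 9 had 0 reads in the E14 library, and the summed TPM was 16.8 and 37.3. Over all genes, 4545 had reads in the E14-Sox2TA/WT library alone and 1318 in the E14 library alone. Of all genes with 6 to 30 reads in the E14-Sox2TA/WT library, 35.6% had 0 in the E14 library. That share was not computed for genes with as many reads as the proteases.

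Of the T cell receptor complex genes, Cd3d, Cd3e and Cd3g had a TPM under 1 in both libraries. Cd3e had 0 and 40 reads, Cd3d 0 and 10 and Cd3g 0 in both. Cd247, of the same complex, had 94 and 73 reads and a TPM of 1.77 and 0.824. The co-receptor gene Cd4 had 93 and 92 reads, and the kinase gene Lck had a TPM of 6.69 and 9.94. In the T cell, B cell and NK cell lists no gene reached the TPM of 10 that the rule needs. At a TPM of 1, 2 B cell genes and 1 NK cell gene were past 2-fold higher and 1 T cell gene was past 2-fold lower. The summed TPM of the lists was 10.6 and 14.8, 3.89 and 6.5, and 4.87 and 10.9 in that order. Cd79b, of the B cell receptor, had 23 and 73 reads, Pax5 173 and 392, and the plasma cell gene Mzb1 45 and 42. Gzma, a granule protease of NK cells, had 10 and 28 reads, and Eomes, which early mesoderm also expresses, had a TPM of 4.24 and 7.65. Among dendritic cell genes, Batf3 had a TPM of 1.82 and 7.48, Cd209a 0 and 50 reads and Zbtb46 a TPM of 8.02 and 7.73, and the list summed to 33.1 and 65.6.

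The blood and vessel genes differed little in sum between the libraries. The erythroid list had a summed TPM of 391 and 392, with Hbb-bs at 141 and 162, Hba-a1 at 122 and 96.5 and Hbb-bt at 44.9 and 57.6. Single endothelial genes went both ways, 5 higher and 3 lower of the 8 with a TPM of at least 1. Pecam1 had 27.6 and 31.6 and Emcn 22.6 and 23.2, whereas Tek had a ratio of 2.92 (2.53 to 3.37) and Lyve1 of 7.06 (4.96 to 10.3), both under the TPM of 10 that the rule needs. Prox1 passed the rule as lower, with a TPM of 10.9 and 3.99 and a ratio of 0.365 (0.337 to 0.395). Relative to genes of similar length and GC content its log2 ratio was -0.74 in place of -1.26.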
